A study of Mus musculus with 8 samples.

Results

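The genes that build cholesterol and fatty acids were measured in whole left kidneys of mice that lack CTRP1, a secreted relative of adiponectin encoded by C1qtnf1. The set holds 38 genes of the 23386 in the deposited table, each found by its exact symbol. Of these, 24 belong to the sterol arm (enzymes, the carrier Stard4 and the sterol-sensing regulators) and 14 to the fatty acid arm (supply, synthesis, elongation, desaturation and first steps of glycerolipid assembly, with their regulator Srebf1). All 38 passed the filter on low values, a mean of at least 0.5 FPKM over the libraries, a unit that counts reads relative to gene length and sequencing depth, so no member was left untested.

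There were 4 Ctrp1-/- kidneys (KO) and 4 wild-type kidneys (WT), 1 library each, from animals of 49 weeks labelled C57BL/6J. The KO allele is a germline deletion in the largest exon of C1qtnf1, which took its coding region and part of the 3′UTR. It was made in embryonic stem cells of 129S5 origin and bred into C57BL/6J for several generations, and KO and WT animals were littermates of heterozygous parents. The labels give no treatment or special diet and no sex for the single animals. The libraries held 15027400 to 19256378 counted reads, and a member had between 156 and 11968 reads in a library. C1qtnf1, the check of the labels, measured 0.188, 0.575, 0.228 and 0.311 scaled FPKM (FPKM divided by a factor for each library) in the KO libraries, against 3.85, 2.74, 3.18 and 4.75 in the WT libraries. The log2 fold change was -2.32 (SE 0.18, limma adjusted p = 0.000768), and reads outside the deletion can still be counted. Since whole kidneys were used, fewer cells of a type and less RNA per cell cannot be told apart in any value below.

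Cholesterol is made from acetyl-CoA through mevalonate, the isoprenoid diphosphates, squalene and lanosterol, and fatty acids are made from the same acetyl-CoA by carboxylation and repeated condensation. Both routes are driven by the SREBP transcription factors. When membrane sterol is low, SCAP carries the SREBPs from the endoplasmic reticulum to the Golgi, where they are cut and released to the nucleus, and when sterol is plentiful the INSIG proteins hold SCAP back. SREBP-2, encoded by Srebf2, acts mainly on the sterol genes, and SREBP-1c, a product of Srebf1, mainly on the fatty acid genes. In the kidney, proximal tubule cells draw most of their energy from the oxidation of fatty acids, and SREBP-driven lipid synthesis has been studied there mainly in mouse models of obesity and diabetes.

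SREBPs bind sterol regulatory elements and act together with NF-Y, which binds the CCAAT box, so these letters were searched on both strands in windows from 250 bases before to 50 bases after RefSeq start sites (GRCm38.p6). Windows were found for 30 of the 38 genes. The element TCACNCCAC occurred in 1 of the 30, Hmgcs1, and in 1.44% of all 27025 genes with a window. Its shorter form CACNCCAC, which the longer one contains, occurred in 4 of the 30 and in 7.12% of all genes, and the CCAAT box in 25 of the 30 (18 of 20 sterol and 7 of 10 fatty acid genes) and in 41.1% of all genes. Over the 32851 windows, of which a gene can have several, the shares were 1.24%, 6.24% and 37.4%. The 4 matches to the shorter element shown here are those of the sterol-making and sterol-sensing genes and of Gpam, with the match in capitals, read 5′ to 3′ on the gene's strand. That of Insig1 lies on the opposite strand of the gene, and Acat2 has another on the opposite strand that is not shown.
Hmgcs1, chr13:119690204-119690233, plus strand: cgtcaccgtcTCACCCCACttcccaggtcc
Acat2, chr17:12960888-12960917, minus strand: tggatcctccaCACCCCACcctaacccgac
Insig1, chr5:28071392-28071421, plus strand: cgtgtagtgtcGTGGCGTGtaccttccatg
Gpam, chr19:55127400-55127429, minus strand: agccaagaagaCACCCCACccccaactcac
For Hmgcs1 the capitals mark the full TCACNCCAC, whose first base is at -137 from the start site, and for the others they mark the shorter form, at -181, -9 and -180 in the order given. The next windows show 1 CCAAT box each, the nearest before the start site, of 5 genes among those that differ most between the genotypes below. First come 3 whose KO mean was above WT and then 2 whose KO mean was below. Hmgcs1 and Insig2 also carry boxes, which are not shown. In the 5 windows printed next the box reads ATTGG, because it lies on the opposite strand, except in Cyp51.
Idi1, chr13:8885580-8885609, plus strand: gtccaaggtgccATTGGctggcgaccgaca
Cyp51, chr5:4104709-4104738, minus strand: cgctgtccgccaCCAATctggtcctgagat
Me1, chr9:86687468-86687497, minus strand: gcctcacatggtATTGGtattttgcacata
Mvk, chr5:114444243-114444272, plus strand: tccagctctctgATTGGcctcaggaagaca
Srebf2, chr15:82147122-82147151, plus strand: cttcgcgcgccgATTGGctaatgcaagcct
The boxes begin at -14, -29, -208, -14 and -135, and genes with KO values above WT and below WT both carry one. The window of Me1 belongs to a RefSeq start inside the span that the file gives for the gene. That of Gpam belongs to a start upstream of and outside its span, chr19:55069734-55099451. A match is a description of these letters and not a measured binding site.

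Genes of both arms lay on both sides of WT. Among those furthest from it, Hmgcs1, Idi1, Cyp51, Insig2 and Me1 had KO means of 1.11 to 1.46 times the WT mean, and Mvk, Srebf2 and Dgat2 of 0.787 to 0.881 times. No gene of the set passed the threshold: 0 of 38 were called at an adjusted p under 0.05 over all 14022 tested genes with limma, where 0.0499% of all tested genes (7) were called, 0.0285% with KO above WT and 0.0214% with KO below. The lowest adjusted p among the 38 was 0.183. Without adjustment, 8 of 38 genes (21.1%) had a limma p under 0.05, where 15.4% of all tested genes stood below that value. limma's voom on the recovered reads likewise called 0, with 9 at an unadjusted p under 0.05, where 15.8% of all tested genes did. The KO and WT libraries did not overlap for 3 genes, Idi1, Hsd17b7 and Me1 (7.89% of the 38), all with KO above WT, where 8.62% of all tested genes had groups that did not overlap, 4.34% with KO above WT and 4.28% with KO below. The non-overlap share lies near that of all tested genes.

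The non-overlap count of the 38 genes was 3 without KO replicate 1, 3 without WT replicate 1 and 4 without WT replicate 2. Of all tested genes 11%, 11.2% and 10.8% did not overlap there. The count was 6 without KO replicate 2, 5 without KO replicate 3 and 7 without KO replicate 4, against 12.9%, 13.1% and 13.7% of all tested genes. It was 7 without WT replicate 3 and 5 without WT replicate 4, against 21.1% and 12.6%. It was 5 with quantile normalization and 1, Me1, once GC and length trends were taken out of each library, where the background was 8.42% and 6.45%. Idi1, Hsd17b7 and Me1 stayed among the non-overlapping genes whichever library was left out, as genes without overlap in the full set of libraries must.

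The median log2 fold change of KO over WT was -0.015 for the 24 sterol genes, 10 of them above 0 and 14 below. It was 0.021 for the 14 fatty acid genes, 9 above and 5 below, and -0.0012 for all 14022 tested genes. The 95% interval of the log2 fold change lay within a 2-fold change either way for all 38 genes, and within a 1.5-fold change for 37 of them. The exception at 1.5-fold was Idi1. It lay within a 1.25-fold change for 26 genes, 18 sterol and 8 fatty acid.

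**Figure D1:**
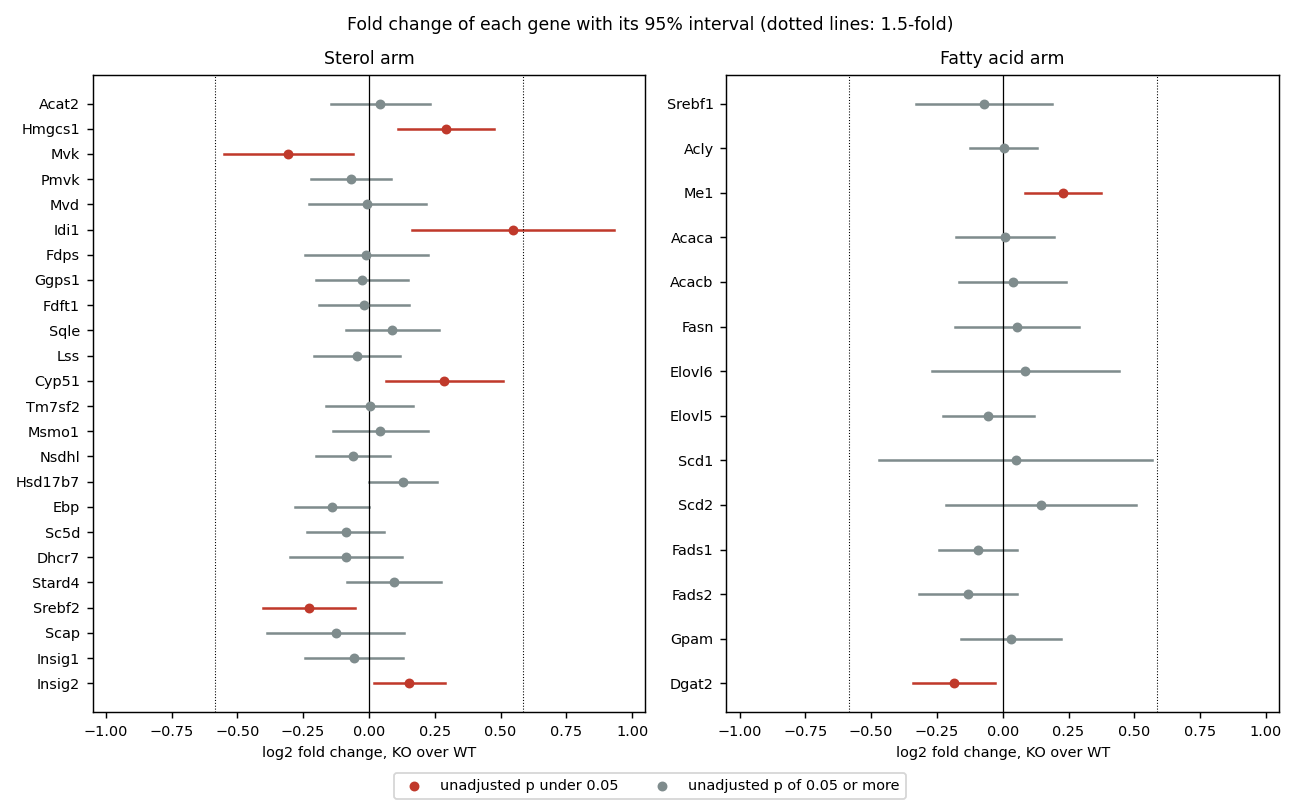
The horizontal axis gives the log2 fold change, KO over WT, for each gene of the sterol arm (left) and fatty acid arm (right) in pathway order, with 95% intervals from limma; dotted lines mark 1.5-fold and red marks an unadjusted p under 0.05. Points lie on both sides of 0 in both arms, from -0.31 for Mvk to 0.55 for Idi1.

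Levels, in scaled FPKM and so per length of gene, differed far more between steps of the pathway than between genotypes. In the sterol arm the mean over the 8 libraries ran from 3.70 for Lss to 168 for Hmgcs1, and in the fatty acid arm from 3.19 for Acaca to 143 for Me1. Hmgcs1 averaged 51.3 ± 6.99 times the level of Lss in KO and 40.2 ± 3.27 times in WT (SD, n = 4). The median of these mean levels was 15.9 in the sterol arm and 23.5 in the fatty acid arm, against 6.92 over all tested genes. The carboxylases Acaca and Acacb and the synthase Fasn stood between 3.19 and 9.09. They lay below the enzymes that supply carbon and reducing power for fatty acid synthesis (Acly and Me1, 48.5 and 143).

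**Figure D2:**
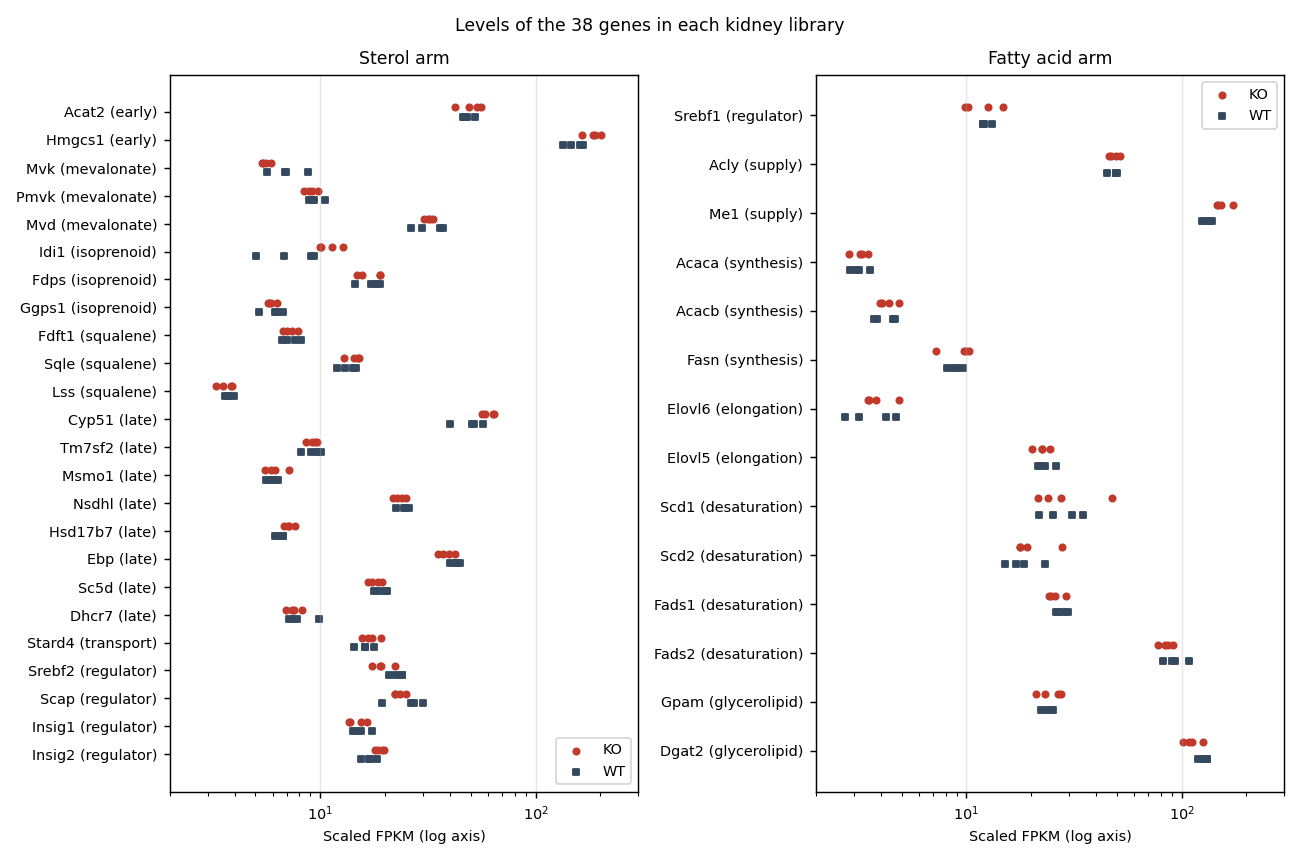
Scaled FPKM (horizontal, log axis) of the 38 genes in pathway order, with the role in brackets; red circles are the 4 KO libraries and dark squares the 4 WT libraries. Hmgcs1, Me1 and Dgat2 stand highest and Acaca, Lss and Elovl6 lowest, and KO and WT points of most genes lie over each other.

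Of the regulators, Srebf2 (ENSMUSG00000022463; chr15:82147266-82205376, plus strand, mm10) had 17.5, 22.3, 19.0 and 19.1 scaled FPKM in KO libraries 1 to 4, against 24.1, 23.8, 21.0 and 22.6 in WT libraries 1 to 4. KO replicate 2 lay among the WT values and the other KO libraries lay below all of them. Srebf2 averaged 19.5 ± 2.05 in KO and 22.9 ± 1.43 in WT (SD, n = 4), and its log2 fold change was -0.23 (SE 0.078, 95% interval -0.40 to -0.055, limma adjusted p = 0.235). Srebf1 (chr11:60199089-60222581) had 10.2, 12.5, 14.8 and 9.83 in the KO libraries, against 13.2, 12.0, 12.0 and 12.1 in the WT libraries. The KO libraries spread on both sides of the narrow WT range, and its log2 fold change was -0.071 (SE 0.12, 95% interval -0.33 to 0.19, limma adjusted p = 0.797). Scap, the escort of the SREBPs, had 23.5, 25.0, 22.2 and 22.1 in the KO libraries, against 29.9, 27.2, 19.3 and 26.3 in the WT libraries, with WT replicate 3 lowest of the 8 and the other WT libraries highest. For Scap the log2 fold change was -0.13 (SE 0.12, 95% interval -0.39 to 0.13, limma adjusted p = 0.628).

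The INSIG genes encode the proteins that retain SCAP. Insig1, itself a target of SREBP-2 and so a common readout of that factor, had 13.6, 15.5, 16.5 and 13.8 in the KO libraries, against 14.2, 15.5, 17.4 and 14.6 in the WT libraries. The groups overlapped, with the lowest values in KO replicates 1 and 4, and its log2 fold change was -0.058 (SE 0.083, 95% interval -0.24 to 0.13, limma adjusted p = 0.763). Insig2, which is less tied to SREBPs, had 19.8, 18.6, 18.0 and 19.3 in the KO libraries, against 16.9, 15.5, 18.3 and 17.1 in the WT libraries. Its KO values were above those of 3 WT libraries, and KO replicate 3 lay below WT replicate 3. For Insig2 the log2 fold change was 0.15 (SE 0.060, 95% interval 0.018 to 0.29, limma adjusted p = 0.279). The ratio of Insig2 to Insig1 levels was 1.29 ± 0.173 in KO and 1.10 ± 0.0886 in WT (SD, n = 4). Stard4, a carrier that moves cholesterol between membranes, measured 17.2 ± 1.47 scaled FPKM in KO and 16.1 ± 1.44 in WT, at a log2 fold change of 0.10 (SE 0.080, limma adjusted p = 0.584).

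At the entry of the sterol route, Hmgcs1 (ENSMUSG00000093930; chr13:119690462-119708086, plus strand), the cytosolic HMG-CoA synthase whose window holds the element printed above, had 200.9, 185.8, 164.9 and 189.6 scaled FPKM in KO libraries 1 to 4, against 133.4, 145.6, 160.4 and 165.3 in WT libraries 1 to 4. A single pair crossed, KO replicate 3 being just below WT replicate 4. Hmgcs1 averaged 185 ± 15.0 in KO and 151 ± 14.5 in WT (SD, n = 4), and its log2 fold change was 0.29 (SE 0.082, 95% interval 0.11 to 0.48, limma adjusted p = 0.183), the lowest adjusted p of the 38. Acat2, which joins the first acetyl units and has a close copy in the mouse genome with which reads can be shared, measured 50.1 ± 5.88 scaled FPKM in KO and 48.4 ± 2.86 in WT, at 0.043 (SE 0.084, limma adjusted p = 0.840).

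The 3 mevalonate steps all had log2 fold changes below 0. Mvk (ENSMUSG00000041939; chr5:114444269-114460591, plus strand), mevalonate kinase, had 5.35, 5.92, 5.40 and 5.60 in the KO libraries, against 8.81, 6.93, 5.69 and 6.88 in the WT libraries. WT replicate 3 lay among the KO values and the other WT libraries lay above them. For Mvk the log2 fold change was -0.31 (SE 0.11, 95% interval -0.55 to -0.061, limma adjusted p = 0.249), the lowest log2 value of the set. The next enzymes, Pmvk and Mvd, measured 9.03 ± 0.573 scaled FPKM in KO and 9.50 ± 0.692 in WT, and 31.9 ± 1.27 scaled FPKM in KO and 32.3 ± 5.04 in WT, at log2 fold changes of -0.069 and -0.0073 (limma adjusted p = 0.653 and 0.980).

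Idi1 (ENSMUSG00000058258; chr13:8885501-8892451, plus strand), the isomerase that converts isopentenyl to dimethylallyl diphosphate, had the largest difference of the set. It had 12.8, 11.3, 9.99 and 10.1 scaled FPKM in KO libraries 1 to 4, against 9.36, 6.79, 5.03 and 9.07 in WT libraries 1 to 4, and all 4 KO values were above all 4 WT values. WT replicates 2 and 3 were far below WT replicates 1 and 4, and the gap between KO replicate 3 and WT replicate 1 was smaller than the spread within either group. Idi1 averaged 11.0 ± 1.30 in KO and 7.56 ± 2.04 in WT (SD, n = 4), 1.46 times the WT mean, and its log2 fold change was 0.55 (SE 0.17, 95% interval 0.16 to 0.93, limma adjusted p = 0.215). Its neighbours in the route, Fdps and Ggps1, which lengthen the isoprenoid chain, measured 17.1 ± 2.20 scaled FPKM in KO and 17.2 ± 1.93 in WT, and 5.94 ± 0.251 scaled FPKM in KO and 6.08 ± 0.629 in WT, at -0.011 and -0.026 (limma adjusted p = 0.971 and 0.897).

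Of the 3 steps through squalene, 1 had a log2 fold change above 0. Sqle, squalene epoxidase and a rate-limiting step of the later pathway, had 14.3, 15.2, 14.9 and 12.8 in the KO libraries, against 13.0, 14.2, 11.9 and 14.7 in the WT libraries. The groups overlapped and its log2 fold change was 0.089 (SE 0.079, 95% interval -0.088 to 0.27, limma adjusted p = 0.614). For Sqle it was 0.034 without WT replicate 3 and 0.14 without KO replicate 4. Fdft1, squalene synthase, and Lss, lanosterol synthase, measured 7.24 ± 0.508 scaled FPKM in KO and 7.35 ± 0.656 in WT, and 3.64 ± 0.294 scaled FPKM in KO and 3.76 ± 0.145 in WT, at log2 fold changes of -0.018 and -0.045 (limma adjusted p = 0.930 and 0.793). The end of Fdft1 overlaps that of Ctsb on the opposite strand. Other spans that overlap a neighbour are those of Ggps1 (Arid4b), Lss (4930483K19Rik), Tm7sf2 (Vps51), Scap (5830462I19Rik), Srebf1 (Rai1), Me1 (A330041J22Rik), Acaca (Gm11437) and Acacb (Gm13784). Vps51 lies on the same strand as Tm7sf2, and the other neighbours lie on the opposite strand. Whether reads were counted by strand is not stated in the sources, so these values are less certain. For Tm7sf2 counting by strand would not separate the overlapping genes.

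Of the 8 late enzymes from lanosterol to cholesterol, 4 had log2 fold changes above 0 and 4 below. Cyp51 (ENSMUSG00000001467; chr5:4081145-4104746, minus strand), lanosterol demethylase, had 63.5, 64.3, 58.3 and 56.3 in the KO libraries, against 52.0, 57.1, 40.0 and 50.5 in the WT libraries. WT replicate 2 lay within the KO range and WT replicate 3 was far below all others, and its log2 fold change was 0.29 (SE 0.10, 95% interval 0.064 to 0.51, limma adjusted p = 0.240). Without WT replicate 3 the log2 fold change of Cyp51 was 0.19. Hsd17b7, a ketosteroid reductase of the C4 demethylation, had 7.08, 7.59, 6.81 and 7.17 in the KO libraries, against 6.73, 6.68, 6.14 and 6.47 in the WT libraries, the 4 KO values above the 4 WT values. For Hsd17b7 the log2 fold change was 0.13 (SE 0.058, 95% interval -0.00081 to 0.26, limma adjusted p = 0.326). The other late enzymes were Msmo1 at 0.043, Tm7sf2 at 0.0020, Nsdhl at -0.061, Dhcr7 at -0.087, Sc5d at -0.088 and Ebp, the sterol isomerase, at -0.14 on the log2 scale. Their limma adjusted p ran from 0.325 for Ebp to 0.994 for Tm7sf2.

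**Figure D3:**
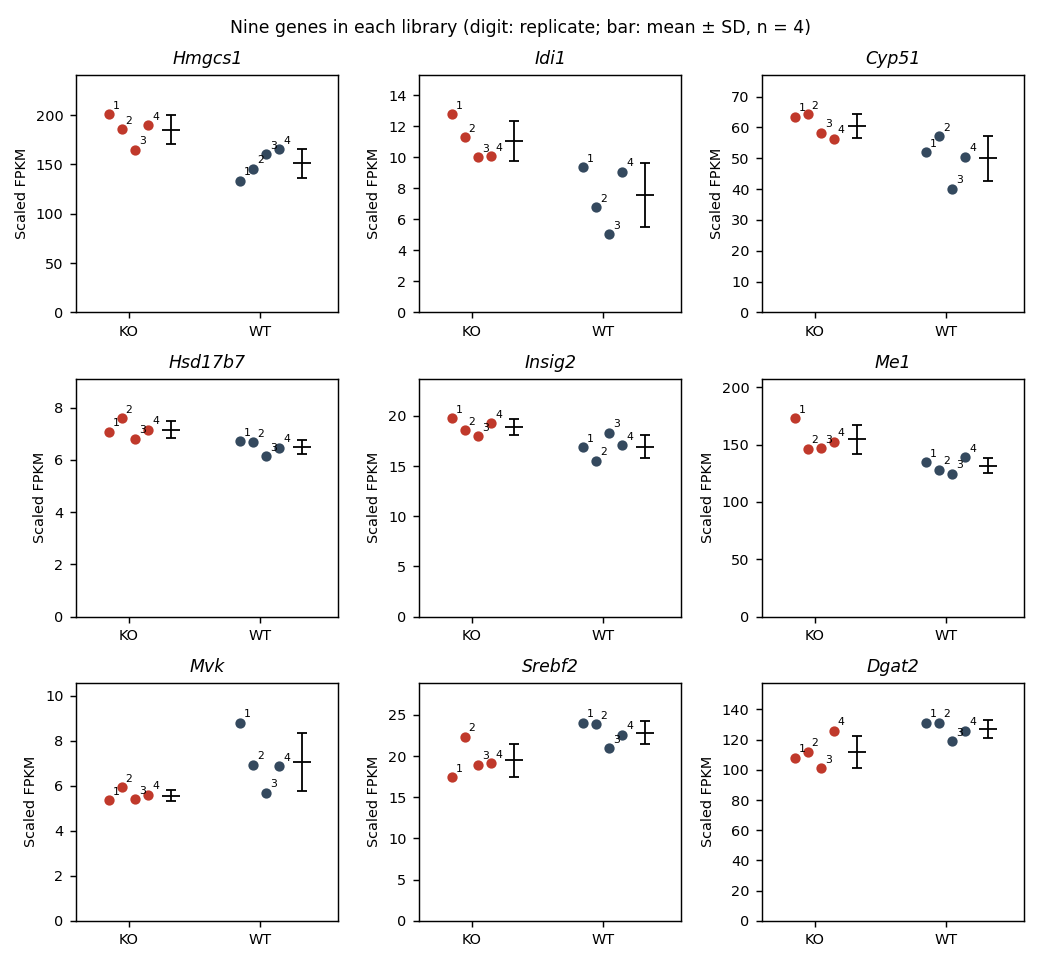
Scaled FPKM (vertical axes, linear, from 0) of the 8 genes with an unadjusted limma p under 0.05 and of Hsd17b7 in the KO (left) and WT (right) libraries; digits are replicate numbers and the bar is the mean ± SD (n = 4). Idi1, Hsd17b7 and Me1 show no overlap, Hmgcs1 crosses in a single pair, and WT replicate 3 is the lowest library for Idi1, Cyp51, Hsd17b7 and Me1.

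In the fatty acid arm, Acly, the lyase that makes cytosolic acetyl-CoA from citrate, had 46.8, 51.7, 49.7 and 46.0 in the KO libraries, against 49.4, 50.1, 44.8 and 49.3 in the WT libraries. WT replicate 3 was lowest and KO replicate 2 highest, and the log2 fold change was 0.0046 (SE 0.057, 95% interval -0.12 to 0.13, limma adjusted p = 0.977). Me1 (ENSMUSG00000032418; chr9:86581371-86695953, minus strand), malic enzyme, which yields NADPH, had 173, 146, 147 and 152 scaled FPKM in KO libraries 1 to 4, against 135, 128, 125 and 139 in WT libraries 1 to 4. All 4 KO values were above all 4 WT values, with KO replicate 1 highest. Me1 averaged 155 ± 12.5 in KO and 132 ± 6.39 in WT (SD, n = 4), and its log2 fold change was 0.23 (SE 0.064, 95% interval 0.086 to 0.37, limma adjusted p = 0.186).

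The synthesis enzymes themselves showed no difference that passed. Acaca, acetyl-CoA carboxylase of the cytosol, had 3.49, 3.27, 3.19 and 2.86 in the KO libraries, against 3.18, 2.90, 3.09 and 3.56 in the WT libraries, and its log2 fold change was 0.0099 (SE 0.083, 95% interval -0.18 to 0.20, limma adjusted p = 0.966). Acacb, the mitochondria-bound form, measured 4.33 ± 0.399 scaled FPKM in KO and 4.21 ± 0.472 in WT, at 0.038 (SE 0.091, limma adjusted p = 0.869). Fasn (ENSMUSG00000025153; chr11:120805940-120824178, minus strand), fatty acid synthase, had 9.75, 9.96, 10.3 and 7.22 in the KO libraries, against 9.60, 8.71, 8.15 and 9.05 in the WT libraries. KO replicates 1 to 3 were above all WT values and KO replicate 4 was below all of them, and its log2 fold change was 0.055 (SE 0.11, 95% interval -0.18 to 0.29, limma adjusted p = 0.835). The value for Fasn was 0.17 without KO replicate 4 and 0.0043 without KO replicate 3. Fasn lies 2.36 Mb from C1qtnf1, and the other members on chromosome 11, Acly, Acaca and Srebf1, lie 17.9, 34.0 and 58.2 Mb away. Near C1qtnf1 the genotype and DNA of the 129S5 donor strain cannot be told apart.

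None of the elongation and desaturation genes separated the genotypes. Elovl6, which extends palmitate, had 3.51, 3.79, 4.89 and 3.53 in the KO libraries, against 2.74, 4.25, 4.72 and 3.17 in the WT libraries, the groups overlapping, and its log2 fold change was 0.086 (SE 0.16, 95% interval -0.27 to 0.44, limma adjusted p = 0.825). Elovl5, an elongase of polyunsaturated chains, had 22.5, 20.1, 24.5 and 22.5 in the KO libraries, against 21.6, 23.1, 26.2 and 22.3 in the WT libraries, with WT replicate 3 highest. It stood at -0.054 (SE 0.077, limma adjusted p = 0.761).

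Scd1, the stearoyl-CoA desaturase that is the classic target of SREBP-1c in liver, had 27.5, 47.5, 21.5 and 24.0 scaled FPKM in KO libraries 1 to 4, against 25.1, 34.7, 31.1 and 21.7 in WT libraries 1 to 4. KO replicate 2 stood far above the other 7 libraries, whose KO and WT values overlapped. For Scd1 the log2 fold change was 0.048 (SE 0.23, 95% interval -0.47 to 0.57, limma adjusted p = 0.941), and the value was -0.19 without KO replicate 2 and -0.067 without WT replicate 4. Scd2, its neighbour on the same chromosome and close in sequence, so that reads can be shared, had 17.7, 19.2, 27.9 and 17.8 in the KO libraries, against 17.0, 15.2, 23.3 and 18.6 in the WT libraries. Here KO replicate 3 was highest and WT replicate 3 next, and its log2 fold change was 0.15 (SE 0.16, 95% interval -0.22 to 0.51, limma adjusted p = 0.691). Without KO replicate 3 the value was -0.0055. The ratio of Scd1 to Scd2 levels ran from 0.771 to 2.47 over the 8 libraries and averaged 1.54 ± 0.707 in KO and 1.57 ± 0.498 in WT (SD, n = 4).

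Fads1 and Fads2 encode the desaturases of polyunsaturated chains. Fads1 had 24.7, 28.9, 24.3 and 25.9 in the KO libraries, against 29.5, 28.5, 26.1 and 26.8 in the WT libraries, and Fads2 had 84.0, 91.3, 77.7 and 86.5 in the KO libraries, against 108, 90.1, 82.1 and 93.2 in the WT libraries. Both were highest in WT replicate 1 and lowest in KO replicate 3, and they stood at log2 fold changes of -0.094 (SE 0.067, limma adjusted p = 0.521) and -0.13 (SE 0.084, limma adjusted p = 0.466). The ratio of Fads2 to Fads1 was 3.27 ± 0.114 in KO and 3.36 ± 0.251 in WT (SD, n = 4). In glycerolipid assembly, Dgat2 (ENSMUSG00000030747; chr7:99153663-99182713, minus strand), which adds the last acyl chain of triglyceride, had 108, 112, 101 and 126 scaled FPKM in KO libraries 1 to 4, against 131, 131, 119 and 126 in WT libraries 1 to 4. KO replicate 4 lay within the WT range and the other KO libraries lay below it, and its log2 fold change was -0.19 (SE 0.069, 95% interval -0.34 to -0.030, limma adjusted p = 0.263). Gpam, the mitochondrial glycerol phosphate acyltransferase, measured 24.5 ± 2.99 scaled FPKM in KO and 23.9 ± 1.34 in WT, at 0.031 (SE 0.086, limma adjusted p = 0.886).

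To compare the arms library by library, each gene's log2 value was centred on its mean over the 8 libraries and averaged over the arm, which is a description with no test. The sterol score was 0.000055, 0.043, 0.0084 and -0.017 in KO libraries 1 to 4, against 0.055, -0.015, -0.064 and -0.0099 in WT libraries 1 to 4. The fatty acid score was -0.035, 0.086, 0.040 and -0.076 in the KO libraries, against -0.013, 0.0063, 0.012 and -0.021 in the WT libraries. In the sterol arm the KO values lay inside the WT range, and in the fatty acid arm the WT values lay inside the KO range. The sterol score minus the fatty acid score averaged 0.0046 ± 0.050 in KO and -0.0046 ± 0.060 in WT (SD, n = 4). It was highest in WT replicate 1 (0.067) and lowest in WT replicate 3 (-0.076), so the widest contrast of the arms was between animals of 1 genotype. KO replicate 2 held the highest value of the 8 libraries for 8 of the 38 genes and WT replicate 1 for 10. WT replicate 3 held the lowest value for 10 genes, 7 of them sterol genes, and KO replicate 3 for 8.

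**Figure D4:**
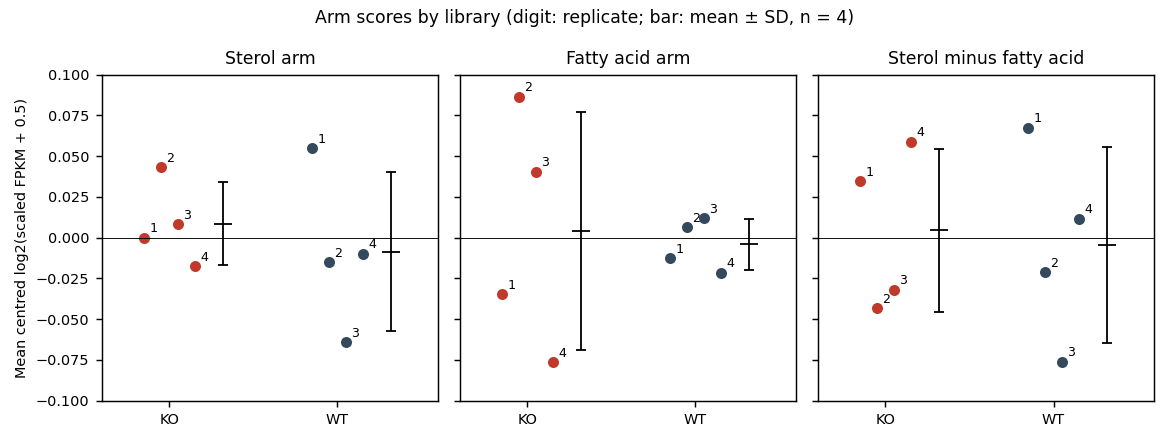
Mean centred log2(scaled FPKM + 0.5) of the 24 sterol genes (left), the 14 fatty acid genes (middle) and their difference (right) in KO and WT libraries; digits are replicate numbers and the bar is the mean ± SD (n = 4). KO and WT overlap in all 3 panels, and WT replicates 1 and 3 mark the ends of the difference at 0.067 and -0.076.

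The genes furthest from WT divided by base composition. The 5 with an unadjusted p under 0.05 and KO above WT (Hmgcs1, Idi1, Cyp51, Insig2 and Me1; 7.18% of all tested genes in that direction) had transcripts of 41.9% to 46.2% GC. The 3 with KO below WT (Mvk, Srebf2 and Dgat2; 8.26% of all tested genes) had 56.3% to 57.9%. Of the 19 genes below the set's median of 49.3% GC, 13 had a log2 fold change above 0 (median 0.048), and of the 19 above it 6 did (median -0.069). All tested genes divided at the same GC content had medians of 0.058 and -0.057. Across the 38 genes, which are not replicates and share their libraries, Spearman's rho of fold change with GC content was -0.55, against -0.44 across all tested genes. Taken library by library across all tested genes, the rho of the centred log2 level with GC content was -0.39, -0.069, -0.12 and -0.36 in the KO libraries, against 0.46, 0.39, -0.24 and 0.29 in the WT libraries.

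After trends with GC content and gene length were removed in each library, Hmgcs1 stood at 0.23, Idi1 at 0.47, Cyp51 at 0.24, Insig2 at 0.12 and Me1 at 0.18 on the log2 scale. Hsd17b7 stood at 0.050, Mvk at -0.23, Srebf2 at -0.17 and Dgat2 at -0.11. All these values kept their sign and lay closer to 0 than before. Genes nearer to WT moved both ways. Sc5d went from -0.088 to -0.15 and Fasn from 0.055 to 0.10, while Fads2 went from -0.13 to -0.079. In that fit 6 of the 38 genes (15.8%) had an unadjusted p under 0.05, where 11.4% of all tested genes did, and 0 were called.

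**Figure D5:**
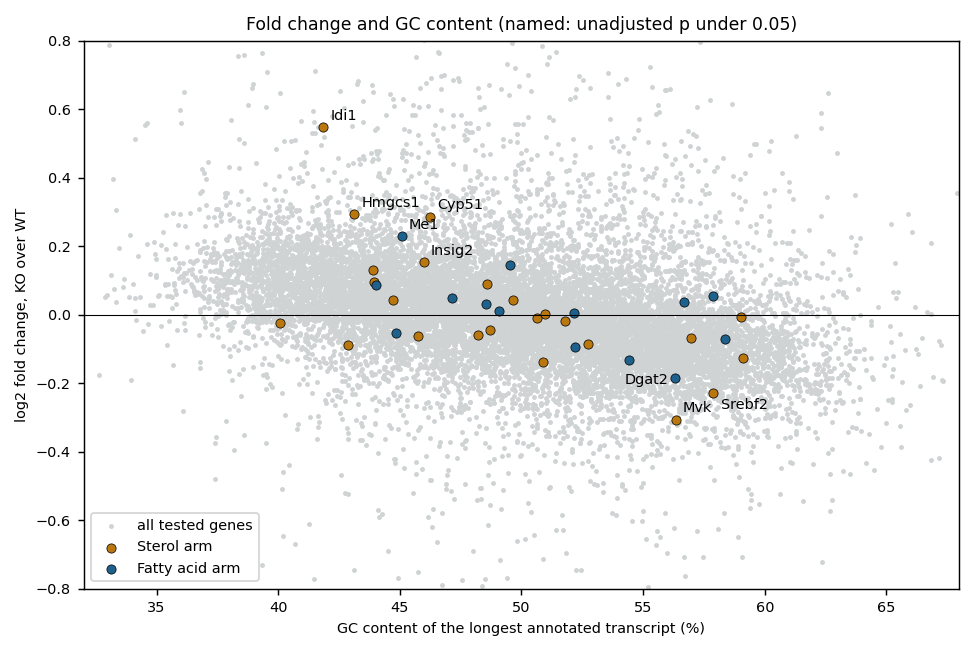
The vertical axis gives the log2 fold change, KO over WT, from -0.8 to 0.8, against GC content of the longest annotated transcript (horizontal axis, %); grey points are all tested genes within these limits and coloured points the genes of the sterol and fatty acid arms. The named genes, with an unadjusted limma p under 0.05, lie at 41.9% to 46.2% GC where KO was above WT and at 56.3% to 57.9% where it was below.

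Other genes of these pathways were listed by function. Of 21 tested genes of sterol transport and SREBP control, 0 were called by limma, and 5 stood above and 1 below WT at an unadjusted p under 0.05. Of all tested genes 7.18% stood above and 8.26% below at that p, and 0.0499% were called, which is the background for the counts of the other lists too. The smallest p belonged to Nceh1, which frees cholesterol from its esters (53.0 ± 6.00 scaled FPKM in KO and 43.0 ± 2.81 in WT; log2 fold change 0.29, SE 0.081, limma adjusted p = 0.181), followed by the oxysterol-binding protein gene Osbp at 0.19 and Erlin2 at 0.14. Nceh1 was the only gene of the 21 whose groups did not overlap, where 8.62% of all tested genes did not. Of 16 tested genes of isoprenoid use and electron supply, 0 were called and 1 was below at an unadjusted p under 0.05. Pggt1b, a subunit of a prenyltransferase, stood at 0.18 and Pdss2, of ubiquinone synthesis, at -0.16 on the log2 scale, neither with an unadjusted p under 0.05. Of 21 tested further genes of fatty acid synthesis and elongation, 0 were called, with 1 above and 1 below at an unadjusted p under 0.05. Tecr, the reductase of the elongation cycle, had 143 ± 4.72 scaled FPKM in KO and 165 ± 9.56 in WT (log2 fold change -0.21, SE 0.054, limma adjusted p = 0.164). For Elovl7, an elongase gene, there were 18.6 ± 0.861 scaled FPKM in KO and 16.7 ± 0.143 in WT (log2 fold change 0.15, SE 0.049, limma adjusted p = 0.228). Tecr and Elovl7 were the only genes of the 21 whose groups did not overlap, and Mlx followed at 0.16.

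Levels of other cell types were set beside these values, as sums of scaled FPKM over marker lists. All 12 adipocyte markers summed to 132 to 264 in KO and 116 to 143 in WT. Most of that sum was Lpl, at 96.7 ± 53.6 scaled FPKM in KO and 60.5 ± 12.7 in WT, and Fabp4, at 66.9 ± 10.8 scaled FPKM in KO and 56.0 ± 4.50 in WT, with log2 fold changes of 0.56 and 0.24 (limma adjusted p = 0.372 and 0.337). The other 9 markers besides Car3 (among them Adipoq, Plin1 and Lep), a division made after the values were seen, summed to 0.553 to 2.64 in KO and 0.407 to 7.59 in WT. Adipoq was at 0 reads in KO replicate 4 and WT replicate 4. The highest sum of the 9, 7.59, was in WT replicate 3, second highest for Scd2. In KO replicates 2 and 3, where Scd1 and Scd2 were highest, the sums were 2.64 and 2.41. WT replicate 1 had a sum of 2.79, above both, with Scd1 at 25.1 and Scd2 at 17.0. WT replicate 2, second highest for Scd1 at 34.7, had a sum of 0.645. The part of these markers in the Scd1 and Scd2 values was not tested. The adrenal genes Cyp11a1, Hsd3b1, Mc2r, Nr5a1 and Mrap had 4, 7, 24, 2 and 26 reads over all 8 libraries. Other genes of that list had more reads, 474 for Star, 130 for Akr1b7, 2253 for Scarb1 and 8947 for Fdx1. Star measured 1.29 ± 0.114 scaled FPKM in KO and 1.23 ± 0.131 in WT. The sum over 9 markers of the adrenal cortex, most of it Fdx1, was 80.5 to 90.5 in KO and 75.8 to 92.1 in WT. KO replicate 3 also had a collecting duct sum of 662, against 308 to 389 in the other KO libraries and 370.3 to 419 in WT. Most of that sum was a single gene, Aqp2, at 446 in KO replicate 3, against 108 to 170 in the other KO libraries and 132 to 189 in WT. The part of these values in Scd2 was not tested.

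Proximal tubule markers differed between the libraries, and none passed the test. Those of the straight part, 9 of 10 with a log2 fold change above 0, summed to 2904, 2544, 2379 and 2337 in KO libraries 1 to 4, against 2526, 2046, 1445 and 2321 in WT libraries 1 to 4, so that WT replicates 2 and 3 were lowest there as they were for Idi1. The largest part of that sum was Acy3, at 1250 ± 135 scaled FPKM in KO and 1067 ± 324 in WT (SD, n = 4), with overlap. Of the 10 straight part markers, 4 did not overlap between the groups, all with KO above WT, where 8.62% of all tested genes did not. Markers of the convoluted part, 11 of 12 below 0, summed to 3995 to 4332 in KO and 4759 to 4958 in WT, without overlap. Tubule injury markers summed to 436.9 to 564 in KO and 416 to 808 in WT, with WT replicate 3 highest. The part of these differences in the values of Idi1, Cyp51, Hsd17b7 and Me1, which were lowest in WT replicate 3, was not tested. Without WT replicate 3 the log2 fold changes were 0.38 for Idi1, 0.19 for Cyp51, 0.10 for Hsd17b7 and 0.20 for Me1, and those of Mvk, Srebf2 and Scap were -0.40, -0.27 and -0.25. That fit called 0 of the 38 genes, with 10 (26.3%) at an unadjusted p under 0.05, where 21.8% of all tested genes were. Leukocyte markers summed to 244 to 339.9 in KO and 285 to 315 in WT, thick limb and distal markers to 2087 to 2499 in KO and 1865 to 2524 in WT, and podocyte and endothelial markers to 198 to 210.3 in KO and 197 to 219.7 in WT.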

How the data were processed

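Polyadenylated RNA of 8 kidneys was sequenced, 4 KO and 4 WT by the labels' genotype field. Per the file headers, the authors deposited FPKM for 23386 genes with each gene's length and mm10 position. The submitters' processing notes list the tools STAR 2.5, HTSeq 0.6.1, CASAVA and DESeq2 without their order, and neither the annotation release nor the strand setting is stated. FPKM times gene length gave whole reads for 100% of values within 0.01, used for voom and depth, and the table had 0 columns of other samples.

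Each library was divided by its median-ratio factor (0.978 to 1.03). The 14022 genes with a mean of at least 0.5 were fitted as log2(scaled FPKM + 0.5) with limma 3.58.1 in R 4.3.3 (eBayes with trend), genotype as the only term, two-sided, Benjamini-Hochberg adjusted over all 14022. The scale understates changes of low genes. GC content came from GENCODE vM21 transcripts (99.5% of tested genes). Read numbers carry counting error only. The fit was tested on simulated data.

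The genes and lists were chosen with earlier results of these data known. Values in every library are given for genes whose groups do not overlap, the 6 of smallest p in each arm, and 15 genes chosen by role. The first 3 by p are named from other lists. A gene that this rule names is not reported here. Alternatives were other pseudocounts, filters, scalings, limma settings, voom, GC and length removal, another threshold and leaving out each library. Alternatives for the non-overlap count were chosen after seeing the data. Sequences are RefSeq's, build GRCm38.p6.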

Additional observations from a re-analysis of the deposited data

Results flagged for a closer look

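In 80 groups of 4 libraries (the 38 genes and both arm scores in each genotype), 3 held a library further from its group than Dixon's 95% criterion allows, where chance gives about 1 in 20. Scd2 measured 27.9 scaled FPKM in KO replicate 3, against 17.7 to 19.2 in the other KO libraries. Srebf1 measured 13.2 in WT replicate 1, against 12.0 to 12.1 in the other WT libraries. Acly measured 44.8 in WT replicate 3, against 49.3 to 50.1 in the other WT libraries.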

How the results depend on the processing

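No paired analysis was possible because the labels give the KO and WT animals no shared number. At an adjusted p under 0.05, 0 of the 38 genes were called in each of the 18 other fits, and 0 at an adjusted p under 0.1 in the fit reported. Without WT replicate 3 the limma adjusted p was 0.0777 for Mvk, 0.0906 for Scap and 0.0959 for Hmgcs1. Over all tested genes 7 were called, 5 to 10 under the other settings and 5 to 16 when libraries were left out, 16 without WT replicate 3. The sterol median ran from -0.040 to 0.016 over left-out libraries and from -0.015 to 0.017 elsewhere, and the fatty acid median from -0.014 to 0.043 and from 0.0030 to 0.031, all moving by less than 1 SD of the library scores (0.039 sterol, 0.053 fatty acid). Of 396 refitted log2 values of the 22 genes given in full, 379 kept their sign, and the 17 that did not belonged to 7 genes. The refits with other filters or other limma settings leave the log2 values as they were, so the sign in those refits was fixed in advance. After removal of GC and length trends Srebf1 stood at 0.0047, Acaca at -0.033 and Elovl6 at -0.0032, and with quantile normalization Acaca stood at -0.0025. With libraries left out, Srebf1 ran from -0.18 to 0.0085, Acly from -0.032 to 0.030, Acaca from -0.028 to 0.058, Elovl6 from -0.032 to 0.20, Elovl5 from -0.098 to 0.0022, Scd1 from -0.19 to 0.18 and Scd2 from -0.0055 to 0.26. Among genes that kept their sign, the range was 0.034 to 0.14 for Sqle, -0.11 to -0.00074 for Insig1, -0.25 to -0.049 for Scap, -0.40 to -0.20 for Mvk, 0.19 to 0.35 for Cyp51, 0.0043 to 0.17 for Fasn, -0.15 to -0.063 for Fads1 and -0.19 to -0.060 for Fads2. The cause was not tested. The 4 libraries a group limit what can be seen to the intervals printed, and every gene of the set had at least 156 reads in each library.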

Other observations

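Genes of triglyceride assembly, storage and breakdown lay mostly below WT, though none passed. Of 19 tested, 0 were called by limma, 15 had a log2 fold change below 0 (median -0.15, against -0.0012 for all tested genes), and 8 were below and 0 above at an unadjusted p under 0.05, where 8.26% of all tested genes were below and 7.18% above. Mgll, monoglyceride lipase, measured 11.0 ± 0.828 scaled FPKM in KO and 14.2 ± 1.47 in WT (log2 fold change -0.35, SE 0.082, limma adjusted p = 0.155). Pnpla2, the lipase that starts triglyceride breakdown, measured 45.4 ± 3.02 scaled FPKM in KO and 53.0 ± 2.66 in WT (log2 fold change -0.22, SE 0.060, limma adjusted p = 0.176), and Plin3, a coat protein of lipid droplets, 25.1 ± 1.14 in KO and 29.6 ± 2.25 in WT (log2 fold change -0.23, SE 0.063, limma adjusted p = 0.182). These 3, named for their smallest p, were the only genes of the 19 whose groups did not overlap, where 8.62% of all tested genes did not (SD, n = 4 each). The convoluted tubule marker sum was likewise below WT in all KO libraries (3995 to 4332 in KO, against 4759 to 4958 in WT). Fold change also ran with GC content across all tested genes (Spearman's rho -0.44). The part of either in the values of these 19 genes was not tested.

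Lpl, lipoprotein lipase, stood apart in KO replicate 1 with 177 scaled FPKM, the other 7 libraries lying between 50.5 and 77.9. Fabp4 ranged from 51.6 to 77.6 over the 8 libraries.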
